A study of Mus musculus with 2 samples.

Results

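Heparan sulfate modifying sulfotransferases transfer sulfate onto the sugar chains of heparan sulfate proteoglycans. The 10 genes described here are the N-deacetylase/N-sulfotransferases *Ndst1*, *Ndst3* and *Ndst4*, the 6-O-sulfotransferases *Hs6st1*, *Hs6st2* and *Hs6st3*, and the 3-O-sulfotransferases *Hs3st1*, *Hs3st2*, *Hs3st4* and *Hs3st5*. They are 10 of the 32285 genes counted. They were chosen by measured values: the CPM of *Hs3st4*, *Hs6st2*, *Hs6st3* and *Ndst3* per embryo and cell class had been seen to mark different neuron groups in these same cells, so the pattern of the members across neuron groups is given as a description without a test. The data are single-cell RNA libraries (10x Genomics 3′) from the cortex of 2 mouse embryos at E16.5, numbered 4 and 5. The labels give both embryos as WT, control animals of the Eomes-Cre line (EomesMllt3), and their tissue as brain hemispheres, and the study's methods give the background as C57BL/6J. There is 1 condition and 1 library per embryo, so no conditions were compared. Of the 12825 and 12289 barcodes, 9932 and 10416 cells were kept in embryos 4 and 5, with medians of 10077.5 and 8853 transcript molecules per cell, counted by unique molecular identifiers (UMIs).

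Heparan sulfate is a long sugar chain built in the Golgi on core proteins such as glypicans and syndecans. NDST enzymes act on the growing chain first, replacing the acetyl group of glucosamine by sulfate. An epimerase and a 2-O-sulfotransferase act on the uronic acid, and 6-O- and 3-O-sulfotransferases then add sulfate to glucosamine, the 3-O step being the rarest. The resulting patterns bind growth factors and guidance cues, and in the developing brain heparan sulfate is needed for axon guidance and for signalling by fibroblast growth factors.

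Cells were clustered without the members and without 37 other genes of the pathway, and clusters were named from marker genes with the ending "-like". The 29 clusters were joined where they took the same name, and the 17 groups with at least 50 cells in each embryo were used. They are 10 named classes and 7 clusters that took no name and are called by their leading gene. The layer 6 neuron-like class was 1 cluster of 721 and 730 cells in embryos 4 and 5, whose leading genes are *Hs3st4*, *Rgs6* and *Prickle1*, with *Tle4* among its first 10. Members that were kept out of the clustering thus still lead or rank high in some groups, as *Hs6st3* does in the Tafa1-led cluster. The upper-layer neuron-like class (734 and 903 cells) had *Cdh12* among the leading genes of both its clusters and *Inhba* among those of one, and the immature excitatory neuron-like class (2417 and 2533 cells) had among its leading genes *Unc5d*, *Neurod1* and *Tfap2d*. Radial glial cell-like (RGC-like) cells numbered 1366 and 1457, and intermediate progenitor-like (IPC-like) cells numbered 1023 and 1068. Of the 3 IPC-like clusters, 2 had *Eomes* and *Neurog2* among their leading genes and the other was led by cycling genes such as *Pclaf*. No cluster was named for layer 5, subplate or caudal ganglionic eminence (CGE) markers. The unnamed Kctd8-led and Grin2a-led clusters scored best for layer 6 markers and the Crym-led cluster for layer 5 markers, without passing the rule. The Adarb2-led cluster scored best for CGE markers (mean log2 ratio 2.45) but had more markers of another class among its leading genes. Its leading genes include *Gad1*, *Dlx1* and *Pbx3*. The erythroid cell-like class had medians of 3598 and 2664 UMIs per cell. Beside those of haemoglobin, its leading genes included neuropeptide genes such as *Sst* in its larger cluster. In its smaller cluster they included *Fabp7*, *Aldoc* and *Pclaf*. Its values are given for comparison and not as a floor, since several groups lie below them, as for *Hs6st2*. The libraries shared 27 barcodes among the kept cells. All levels below are UMIs of a gene as counts per 1e+06 UMIs of the group (CPM), summed per embryo, and a level is compared between groups of cells but not between genes.

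The members lie on 8 chromosomes. In GRCm38.p6, the assembly to which mm10 corresponds, *Ndst3* (chr3:123526166-123691174) and *Ndst4* (chr3:125404029-125728351) lie 1.71 Mb apart on chromosome 3, with 3 protein-coding genes between them. *Hs3st2* (chr7:121391585-121501768) and *Hs3st4* (chr7:123982366-124398989) lie 2.48 Mb apart on chromosome 7, with 22 protein-coding genes between them. *Hs3st1* lies at chr5:39613935-39645592, *Hs3st5* at chr10:36506590-36834397, *Hs6st1* at chr1:36068400-36106446, *Hs6st2* at chrX:51386637-51681705 and *Hs6st3* at chr14:119137516-119869815. The genes span from 31.7 kb (*Hs3st1*) to 732 kb (*Hs6st3*).

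The 30 bases before an annotated RefSeq start (GRCm38.p6) are shown for the 4 members whose levels prompted the choice of the list; CpG dinucleotides are in capitals.
Hs3st4, chr7:123982798-123982827, plus strand: ctCGcctcCGcccctCGgCGcCGgtcctct
Hs6st2, second of 2 starts, chrX:51680478-51680507, minus strand: ggggCGcaaCGgtggCGccaCGgggagggg
Hs6st3, chr14:119138235-119138264, plus strand: cCGgctctgccaacccCGgagtgCGgCGgg
Ndst3, first of 2 starts, chr3:123672478-123672507, minus strand: tgctctgccctatgtttttctatttttcag
In the 300-base window around each start (250 bases before, 50 after), CG occurred 47 times in *Hs3st4*, 41 times in *Hs6st3* and 33 times at this *Hs6st2* start. Of 32851 such windows in the table, 1.44%, 3.46% and 8.56% held as many or more, against a median of 7 CG. The other *Hs6st2* window held 12, and *Hs6st1* held 47 like *Hs3st4*. The *Ndst3* windows held 1 and 3, and the letters before its first start end in a run of pyrimidines and CAG, as sequence before an exon inside a gene often does, so that this start may not be the promoter in use. The counts of CG are a property of the sequence and were not related to the levels.

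The N-sulfotransferases differed in how evenly they were detected. *Ndst1*, the widely used member of its family, was found in every group at between 20.4 and 43.4 CPM (means of 2 embryos). It was highest in IPC-like cells (44.2 and 42.7 CPM in embryos 4 and 5) and RGC-like cells (40.5 and 45), whose values overlap. Its lowest level was 21.2 and 19.6 CPM in the Adarb2-led cluster. The range of *Ndst1* between the highest and the lowest group was thus 2.13-fold, the smallest of the 8 members for which this ratio could be formed.

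*Ndst3* was highest in immature excitatory neuron-like cells, at 267 CPM in embryo 4 and 310 in embryo 5 (mean 289 ± 31.1, SD, n = 2). Cajal-Retzius neuron-like cells, the Reln-expressing cells of the marginal zone, followed with 161 and 203 CPM, which lies below both values of the first class. Upper-layer neuron-like cells had 137 and 139 CPM, the Cntn4-led cluster 103 and 171, and the Tafa1-led cluster 109 and 114. These neighbours in the order overlap in their values. Layer 6 neuron-like cells were at the other end with 10.5 and 10.3 CPM, close to RGC-like cells at 6.08 and 7.28. Within the immature class the 4 clusters ranged widely: the Tfap2d-led cluster had 474 and 561 CPM and the Nrp1-led cluster 337 and 353. The B130024G19Rik-led cluster had 211 and 198 CPM and the Cdh8-led cluster, which holds *Neurod1* among its leading genes, 145 and 159. For the markers of the immature class the Cdh8-led cluster scored highest (mean log2 ratio 1.54). The Tfap2d-led cluster scored lowest (0.63, with 0.44 for the next class) and had no marker of the class among its leading genes. In all, 62.2% and 64.3% of the *Ndst3* UMIs of embryos 4 and 5 came from this class.

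*Ndst4* was detected mainly in 2 small groups. Cajal-Retzius neuron-like cells (69 and 56 cells) had 333 and 316 CPM, and the Cntn4-led cluster (134 and 64 cells) had 107 and 275. The third group, LGE-type GABAergic neuron-like cells (from the lateral ganglionic eminence), had 31.0 and 6.53 CPM, and IPC-like cells had 11.5 and 13.9. No *Ndst4* UMI was counted in the Grin2a-led cluster, where 3 UMIs would give 1.05 and 1.34 CPM. The values of *Ndst4* in the Cntn4-led cluster differ 2-fold or more between the embryos, so its place relative to the Cajal-Retzius class rests on few cells.

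**Figure D1:**
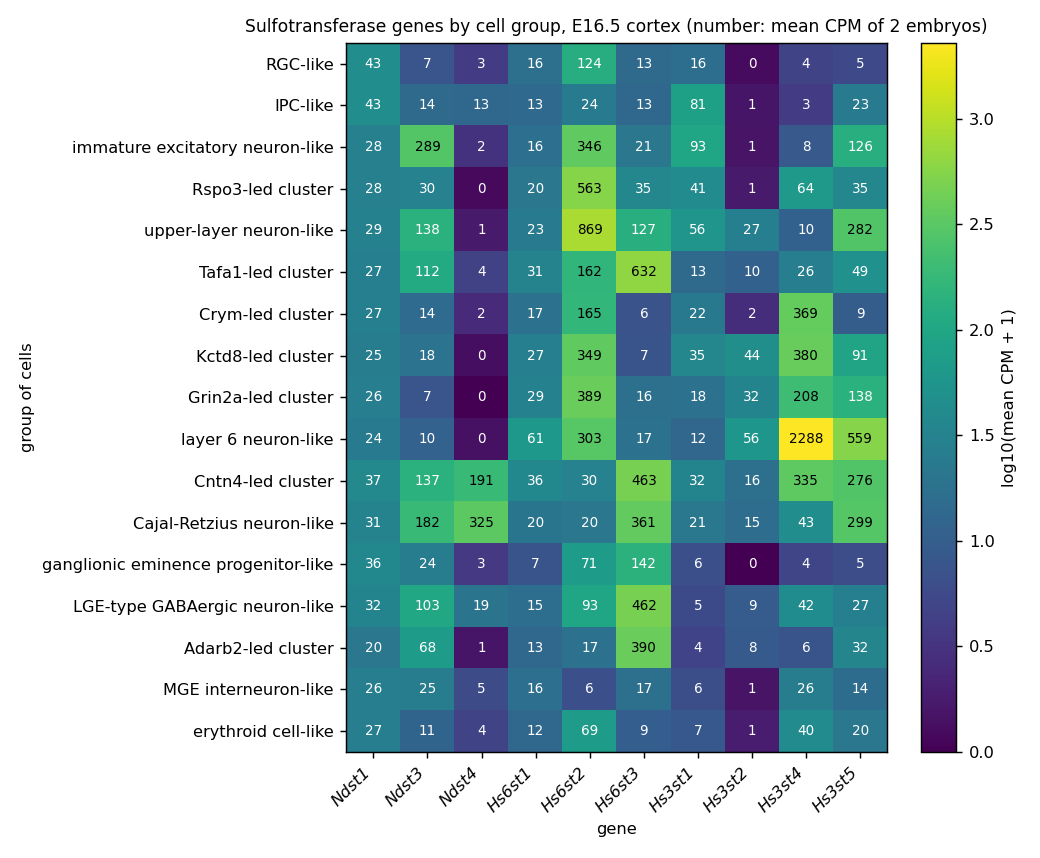
Mean CPM of 2 embryos for the 10 members (columns) in 17 groups of cells (rows), rounded to whole numbers and coloured by log10(mean CPM + 1). *Ndst1* is of nearly even colour, while *Hs3st4* peaks in layer 6 neuron-like cells (2288), *Hs6st2* in upper-layer neuron-like cells (869), *Hs6st3* in the Tafa1-led cluster (632) and *Ndst3* in immature excitatory neuron-like cells (289).

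Among the 6-O-sulfotransferases, *Hs6st1* had a range of 9.25-fold between its highest and lowest group. Layer 6 neuron-like cells had 51.8 and 69.8 CPM, above the Cntn4-led cluster with 31.7 and 40.7. The other groups lay between 6.57 and 31.0 CPM (means), and most neighbours in that order overlap. Ganglionic eminence progenitor-like cells were lowest with 4.73 and 8.42 CPM.

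*Hs6st2* was highest in upper-layer neuron-like cells, at 879 and 858 CPM (869 ± 14.6, SD, n = 2). The Rspo3-led cluster was second with 533 and 593 CPM, below both values of the upper-layer class. The Grin2a-led cluster (441 and 337), the Kctd8-led cluster (336 and 362) and the immature excitatory class (343 and 349) overlap, and layer 6 neuron-like cells followed with 310 and 295. The upper-layer class was itself uneven, since its cluster with *Clstn2* among the leading genes had 1207 and 1296 CPM and its other cluster, in which *Inhba* is a leading gene, had 520 and 501. Within the immature class the Nrp1-led cluster had 670 and 705 CPM and the other 3 clusters between 125 and 142. The lowest level of *Hs6st2* was in interneuron-like cells of the medial ganglionic eminence (MGE), with 6.50 and 4.54 CPM. The erythroid cell-like class, at 61.3 and 76.2 CPM, lay above them and so is no floor for this gene.

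*Hs6st3* had another distribution. Its highest mean was in the Tafa1-led cluster, an unnamed group whose leading genes include *Tafa2*, *Lhfpl3* and *Nr2f2*, with 673 and 590 CPM (632 ± 58.5, SD, n = 2). The next groups varied between the embryos: 332 and 594 CPM in the Cntn4-led cluster, 311 and 614 in LGE-type GABAergic neuron-like cells and 517 and 264 in the Adarb2-led cluster. Their order cannot be told from 2 embryos, and in embryo 5 the first 2 of them lay above the Tafa1-led cluster. Cajal-Retzius neuron-like cells had 387 and 335 CPM, ganglionic eminence progenitor-like cells 144 and 141, and upper-layer neuron-like cells 135 and 119. MGE interneuron-like cells had 12.6 and 20.6 CPM, far below the LGE-type and Adarb2-led cells. The Kctd8-led and Crym-led clusters were lowest, with means of 6.51 and 6.24 CPM.

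The 3-O-sulfotransferases held the strongest peak of the list. *Hs3st4* reached 2203 and 2372 CPM in layer 6 neuron-like cells (2288 ± 119, SD, n = 2), which was 6.01 times the mean of the next group. In embryos 4 and 5, 78.1% and 77.9% of its UMIs came from this class. The Kctd8-led cluster (379 and 382), the Crym-led cluster (246 and 491) and the Cntn4-led cluster (373 and 297) overlap in their order, and the Grin2a-led cluster had 256 and 160. Upper-layer neuron-like cells had 8.46 and 11.7 CPM and immature excitatory neuron-like cells 5.93 and 9.5. The erythroid cell-like class, at 75.4 and 5.25, varied widely. RGC-like (3.97 and 3.70) and IPC-like cells (3.51 and 2.29) were the lowest groups.

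*Hs3st5* was highest in the same class, with 537 and 581 CPM, but was spread more widely. Cajal-Retzius neuron-like cells had 303 and 294 CPM, upper-layer neuron-like cells 274 and 290, and the Cntn4-led cluster 259 and 293. These last 2 overlap. Immature excitatory neuron-like cells had 128 and 123 CPM, and their Nrp1-led cluster had 210 and 206. MGE interneuron-like cells were at 16.6 and 11.8 CPM and RGC-like cells at 5.38 and 3.77, the lowest mean of the 17 groups. The Crym-led cluster, at 246 and 491 CPM for *Hs3st4*, had 6.55 and 11.2 CPM for *Hs3st5*, so the groups that hold these genes are only in part the same.

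*Hs3st1* was highest in immature neurons and intermediate progenitors. Immature excitatory neuron-like cells had 99.5 and 86.7 CPM and IPC-like cells 86.4 and 75.1. Upper-layer neuron-like cells had 58.8 and 53.0 CPM, RGC-like cells 15.6 and 15.7, and layer 6 neuron-like cells 13.1 and 10.6. The level was highest in the Cdh8-led cluster of the immature class (145 and 131) and the Kif26b-led cluster of the IPC-like class (132 and 114). Its values in the 4 GABAergic and ganglionic eminence groups had means between 3.72 and 5.58 CPM. The erythroid cell-like class had 9.43 and 5.25 CPM, from 6 and 2 UMIs. With so few UMIs it cannot be told whether these groups lie under it.

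*Hs3st2* reached 54.5 and 58.3 CPM in layer 6 neuron-like cells, 37.9 and 50.9 in the Kctd8-led cluster, 23.9 and 40.3 in the Grin2a-led cluster and 21.8 and 32.3 in upper-layer neuron-like cells. In the upper-layer class it came nearly wholly from the *Inhba*-carrying cluster, with 45 and 58.4 CPM against 0.684 and 0.476 in the other. With finer clusters (resolution 2) its highest level was 198 CPM, in a Kcnq5-led cluster. The cluster with less *Hs6st2* was thus the one with *Hs3st2*. No *Hs3st2* UMI was counted in ganglionic eminence progenitor-like cells, where 3 UMIs would give 2.37 and 1.80 CPM.

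**Figure D2:**
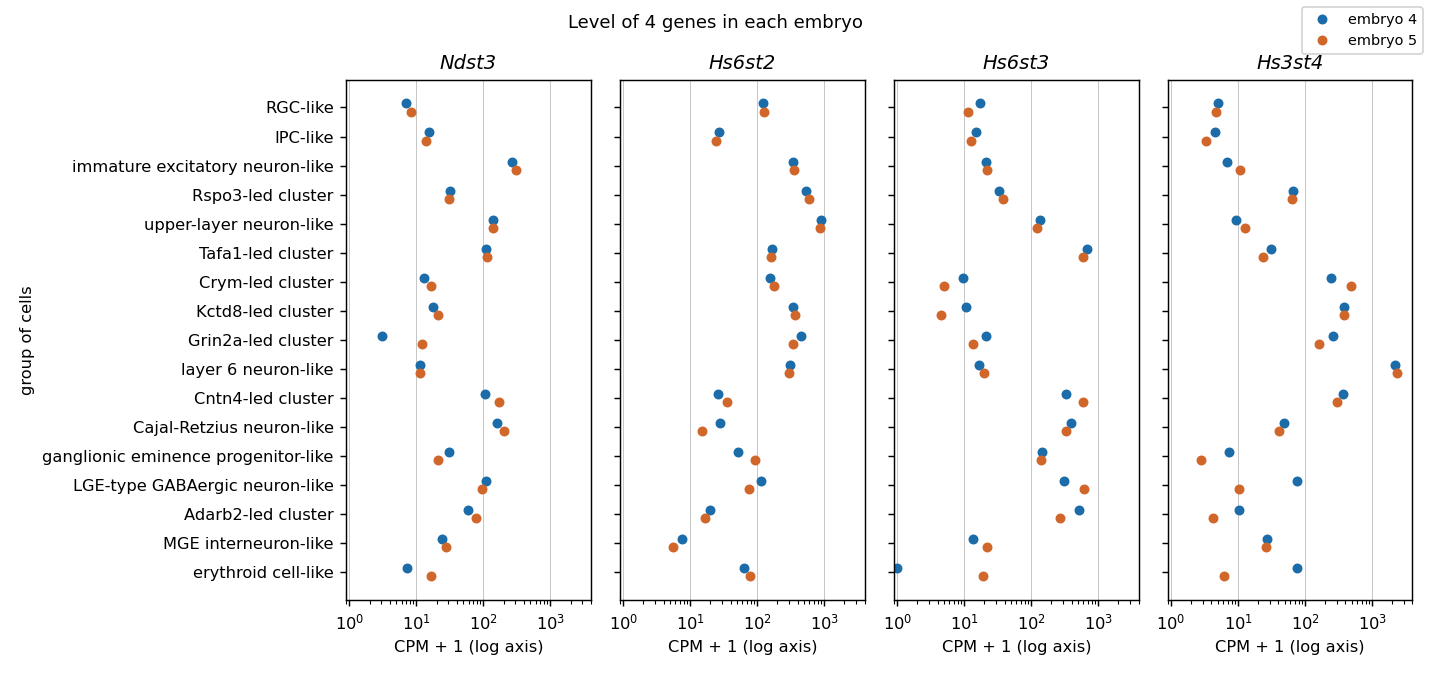
CPM + 1 on a log axis for *Ndst3*, *Hs6st2*, *Hs6st3* and *Hs3st4* in 17 groups, 1 point per embryo. The highest points are 2203 and 2372 CPM for *Hs3st4* in layer 6 neuron-like cells, and the embryos lie apart for *Hs6st3* in the Cntn4-led, LGE-type and Adarb2-led groups.

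Between upper-layer and layer 6 neuron-like cells the members went in both directions. *Hs3st4* (8.46 and 11.7 CPM in upper-layer, 2203 and 2372 in layer 6 neuron-like cells), *Hs3st5*, *Hs3st2* and *Hs6st1* (23.0 and 22.5 against 51.8 and 69.8) were at higher values in layer 6 neuron-like cells. *Hs6st2*, *Hs6st3* (135 and 119 against 15.9 and 18.7), *Ndst3* (137 and 139 against 10.5 and 10.3) and *Hs3st1* were at higher values in upper-layer neuron-like cells. *Ndst1* had 26.6 and 30.6 CPM in upper-layer and 22 and 26.3 in layer 6 neuron-like cells, and *Ndst4* was under 2 CPM in both. The values of *Ndst4* overlap between the classes and those of the other 9 members do not, although those of *Ndst1* lie close together. Of all 13504 genes tested between these classes, the values of 72.1% did not overlap, and since the members were chosen on such differences nothing is read from their count.

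The share of cells with a UMI was measured after each cell was thinned to 2000 UMIs, so that depth did not set the order (95 and 94 cells of embryos 4 and 5 had fewer and were left out). Intervals are exact binomial intervals at 95% and cover counting error only. *Hs3st4* was found in 90.1% (87.7 to 92.2) and 89.5% (87.1 to 91.7) of layer 6 neuron-like cells, and before thinning in 98.1% and 97.5%. In MGE interneuron-like cells the thinned share was 2.93% (1.80 to 4.49) and 3.85% (2.51 to 5.63). In the erythroid cell-like class it was 7.24% (3.67 to 12.6) and 0 of 110 cells, which allows up to 3.30%. In the Kctd8-led cluster it was 35.8% (31.4 to 40.4) and 34.8% (30.7 to 39.1). The gene was thus counted in nearly all cells of the layer 6 neuron-like class and in a part of those of the Kctd8-led cluster.

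*Hs6st2* was found in 66.7% (63.1 to 70.1) and 61.8% (58.5 to 64.9) of thinned upper-layer neuron-like cells, against 1.61% (0.807 to 2.86) and 0.924% (0.340 to 2) in MGE interneuron-like cells. The shares before thinning were 87.7% and 82.7%, against 3.75% and 2.74%, with medians of 11288 and 10146 UMIs in upper-layer and 6509 and 6393 in MGE interneuron-like cells. *Hs6st3* was found in 41.4% (36.7 to 46.2) and 38.1% (33.6 to 42.7) of cells of the Tafa1-led cluster. In LGE-type GABAergic neuron-like cells the share was 17.1% (12.8 to 22.1) and 18.0% (13.1 to 23.7), although the CPM in embryo 5 was nearly double that in embryo 4. The Adarb2-led cluster likewise had 14.9% (11.2 to 19.3) and 15.5% (11.9 to 19.7) at 517 and 264 CPM. In both groups the embryos therefore differed in UMIs per positive cell more than in the share of cells.

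*Ndst3* was found in 32.5% (30.7 to 34.5) and 36.4% (34.5 to 38.3) of immature excitatory neuron-like cells and in 3.51% (2.26 to 5.18) and 4.01% (2.63 to 5.82) of MGE interneuron-like cells. *Ndst4* was found in 33.3% (22.4 to 45.7) and 28.6% (17.3 to 42.2) of Cajal-Retzius neuron-like cells. *Hs3st5* was found in 47.6% (43.9 to 51.3) and 47.9% (44.2 to 51.6) of layer 6 neuron-like cells. For the low members the share said little: *Ndst1* was found in 8.23% (6.82 to 9.82) and 9.74% (8.25 to 11.4) of RGC-like cells, and in 7.24% (3.67 to 12.6) and 4.55% (1.49 to 10.3) of erythroid cell-like cells.

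**Figure D3:**
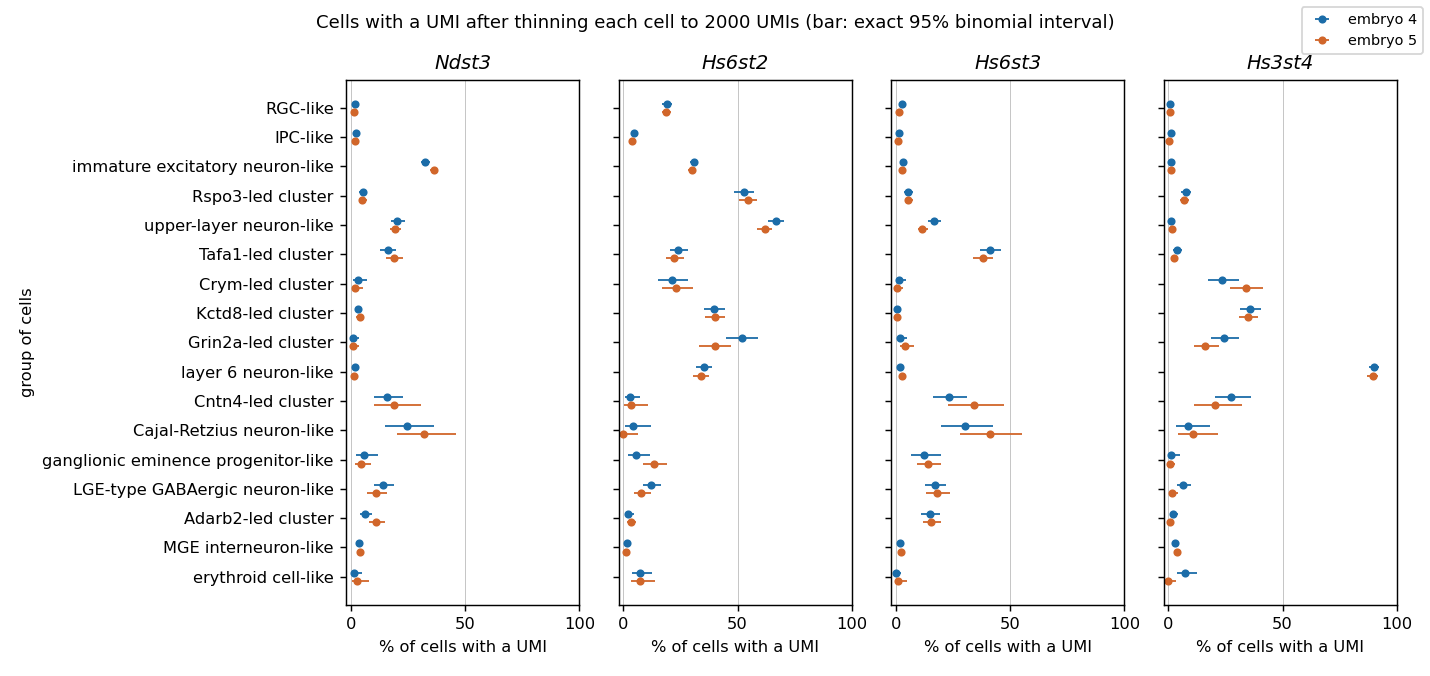
Percent of cells with a UMI of *Ndst3*, *Hs6st2*, *Hs6st3* and *Hs3st4* after thinning to 2000 UMIs per cell, by group and embryo, with exact 95% binomial intervals. *Hs3st4* stands at 90.1% and 89.5% in layer 6 neuron-like cells, and no other group passes 40% for this gene.

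Detection of 2 members in the same thinned cells was counted within a class. Of layer 6 neuron-like cells with an *Hs3st4* UMI, 49.7% (45.8 to 53.6) in embryo 4 and 49.5% (45.6 to 53.4) in embryo 5 also had one of *Hs3st5*. Of those without, 28.2% (18.1 to 40.1) and 34.2% (23.7 to 46.0) had one. In upper-layer neuron-like cells, *Hs6st3* was found in 16.4% (13.2 to 20) and 13.6% (10.9 to 16.8) of the cells with an *Hs6st2* UMI and in 17.2% (12.7 to 22.5) and 8.41% (5.70 to 11.8) of those without. These intervals overlap in both embryos. In the immature excitatory class *Ndst3* was found in 40.4% (36.8 to 44.0) and 43.5% (39.9 to 47.1) of cells with an *Hs6st2* UMI and in 29.1% (26.9 to 31.3) and 33.3% (31.1 to 35.6) of the others, a class whose clusters differ in both genes.

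Across the 17 groups, the profile of *Hs3st4* on the log2(CPM + 10) scale was most like that of *Cacna1e*, a calcium channel gene (Pearson r 0.909 in embryo 4 and 0.909 in embryo 5), and *Prickle1* (0.865 and 0.911), a gene of planar cell polarity. *Gpr22*, *Mgll* and *Opcml* followed. *Hs6st2* was most like *Herc3* (0.895 and 0.867), followed by *Sox5*, *Zbtb18*, *Tiam2* and *Ldb2*. For *Hs6st3* the nearest were *Angpt1* (0.828 and 0.843) and *Nectin1* (0.80 and 0.85), then *Lin28b*, *Pkia* and *Nln*. For *Ndst3* they were *Robo2*, a Slit receptor (0.843 and 0.783), then *Nln*, *Angpt1*, *Plxna4os3* and *Ppm1a*. These are the nearest of 6014 genes with at least 50 CPM in a group of each embryo, and the groups share libraries, so the values are a description. Among the members themselves, the most alike profiles by the lower value were those of *Hs3st2* and *Hs3st5* (r 0.77 and 0.79) and *Hs3st2* and *Hs6st1* (0.77 and 0.74). Then came *Hs3st5* and *Hs6st1* (0.74 and 0.73), and *Hs3st4* and *Hs6st1* had 0.69 and 0.84. *Hs6st3* and *Ndst3* had r of 0.70 and 0.69.

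The progenitor classes were not among the neuron groups for which the list was drawn up, and the members were tested between them. The choice still rested on CPM per class of these same embryos, so the p-values are not independent of it. This holds most for *Hs6st2* and *Ndst3*, whose levels helped to prompt it. The question is how these genes differ between RGC-like and IPC-like cells. The Ano1-led RGC-like cluster (159 and 153 cells) scored 1.88 for RGC markers and 1.86 for the next class, and was kept in the sums. UMI sums of each class in each embryo were compared, and edgeR's quasi-likelihood test was used with adjustment over 15000 genes, of which 24.4% were called higher and 25.1% lower in IPC-like cells. Of the members, 4 were higher, 1 was lower and 4 were not called, and *Hs3st2*, with 18 UMIs in all 4 sums, could not be tested. Both classes come from clusters of the same cells, with members and pathway genes kept out of the clustering, and the test shows only that a difference is larger than the spread between 2 embryos.

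*Hs3st1* was higher in IPC-like cells, at 86.4 and 75.1 CPM against 15.6 and 15.7 in RGC-like cells (log2 difference 2.46, SE 0.10, adjusted p = 2.45e-06, edgeR). The 3 IPC-like clusters all lay above the 4 RGC-like ones, from 40.5 to 132 CPM against 12.7 to 29.3. *Hs6st2* was lower, at 25.4 and 22.9 CPM against 122 and 125 (log2 difference -2.26, SE 0.0878, adjusted p = 2.05e-06, edgeR). Here again the clusters did not overlap, with 8.13 to 43.9 CPM in the IPC-like and 98.7 to 136 in the RGC-like clusters. After thinning, 18.9% (16.8 to 21.1) and 18.7% (16.7 to 20.8) of RGC-like cells and 4.45% (3.26 to 5.91) and 3.69% (2.64 to 5.01) of IPC-like cells had an *Hs6st2* UMI. *Hs6st2* was thus counted in RGC-like cells, at a lower level in IPC-like cells, and at 343 and 349 CPM in immature excitatory neuron-like cells. That last level came mainly from the Nrp1-led cluster, and the other clusters of the immature class lay near the RGC-like values. The erythroid cell-like class had 61.3 and 76.2 CPM, below the RGC-like and above the IPC-like values.

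The other 3 called members passed the test at low levels. In the erythroid cell-like class *Hs3st5* had 37.7 and 2.63 CPM and *Ndst3* 6.28 and 15.8, which overlap their IPC-like values. *Ndst4* had 0 and 7.88 CPM there, below its IPC-like values. *Ndst4* had 11.5 and 13.9 CPM in IPC-like and 3.27 and 2.38 in RGC-like cells (log2 difference 2.25, SE 0.217, adjusted p = 0.000140, edgeR). *Hs3st5* had 19.2 and 26.8 against 5.38 and 3.77 CPM (2.41, SE 0.228, adjusted p = 0.000125, edgeR). *Ndst3* had 14.3 and 13.0 against 6.08 and 7.28 CPM (1.12, SE 0.160, adjusted p = 0.000965, edgeR). The last rests on the IPC-like cluster of cycling cells, with 39.0 and 36.9 CPM, since the other IPC-like clusters had at most 9.33. Without the clusters led by cycling genes the log2 difference of *Ndst3* was -0.39 (adjusted p = 0.247, edgeR). With doublets kept, *Hs3st5* turned to -0.73 (adjusted p = 0.00591, edgeR) and *Ndst3* to -0.73 (adjusted p = 0.0163, edgeR).

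The other 4 tested members were not called. *Ndst1* had 44.2 and 42.7 CPM in IPC-like and 40.5 and 45 in RGC-like cells (log2 difference 0.11, SE 0.0924). *Hs6st1* had 11.9 and 14.4 against 17.2 and 15.8, *Hs6st3* 13.9 and 11.8 against 16.3 and 10.4, and *Hs3st4* 3.51 and 2.29 against 3.97 and 3.70. With doublets kept, however, *Hs3st4* was called lower in IPC-like cells (log2 difference -4.96, adjusted p = 1.45e-06, edgeR), as was *Hs6st3* (-1.19, adjusted p = 0.00162, edgeR). At resolution 2 *Hs6st3* was also called lower (-0.95, adjusted p = 0.0172, edgeR). A p that misses the threshold does not show that these levels are equal.

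**Figure D4:**
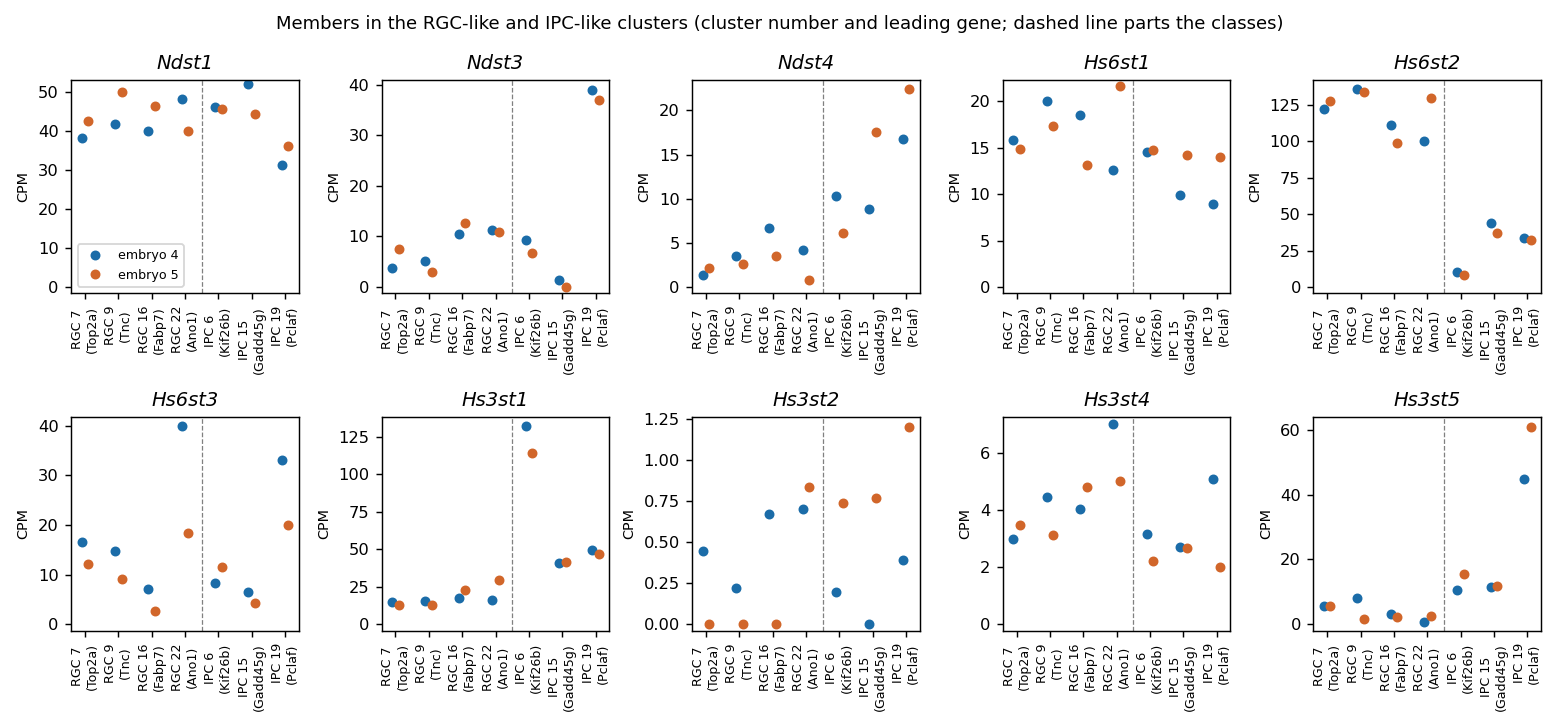
CPM of the 10 members in the 4 RGC-like and 3 IPC-like clusters, 1 point per embryo and 1 panel per gene on its own linear axis. *Hs3st1* lies higher and *Hs6st2* lower in all 3 IPC-like clusters, whereas *Ndst3* and *Hs3st5* are highest in the Pclaf-led IPC-like cluster (39.0 and 36.9, and 44.8 and 60.9 CPM).

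The 37 other genes of the pathway were tested in the same way. Between IPC-like and RGC-like cells, 33 could be tested, of which 5 were higher and 16 lower in IPC-like cells (15.2% and 48.5%, against 24.4% and 25.1% of all genes), with a median log2 difference of -0.36 against 0.00 for all. *Hs2st1*, the 2-O-sulfotransferase, and *Glce*, the epimerase, were among the lower genes. *Xylt1*, which adds the first sugar of the chain, had 52.3 and 52.0 against 149 and 161 CPM (log2 difference -1.48, adjusted p = 8.33e-06, edgeR). Of the core proteins, *Sdc3* (57.6 and 59.2 against 6.92 and 5.29 CPM, log2 difference 3.34, adjusted p = 2.04e-06, edgeR) and *Gpc2* (58.6 and 66.3 against 13.3 and 13.5, 2.31, adjusted p = 3.86e-06, edgeR) were higher in IPC-like cells. *Sdc4*, *Gpc3*, *Sdc2* and *Gpc5* were lower by a log2 difference of at least 1, and the call of *Gpc5* was lost under DESeq2 (adjusted p = 0.0575), with other gene minimums (adjusted p = 0.0743 and 0.103, edgeR) and at resolution 0.5 (adjusted p = 0.224, edgeR).

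Between excitatory neuron-like cells (immature, upper-layer and layer 6 classes together) and RGC-like cells, 10 of 34 tested genes were higher and 16 lower (29.4% and 47.1%, against 36.2% and 34.2% of all genes). *Gpc2* was 134 and 135 CPM in the neuron classes against 13.3 and 13.5 (log2 difference 3.55, adjusted p = 1.30e-07, edgeR), and *Sdc3* was also higher. *Hs2st1* had 112 and 116 against 321 and 340 CPM (-1.32, adjusted p = 3.18e-06, edgeR). The core proteins *Gpc3*, *Gpc4*, *Sdc1*, *Sdc2*, *Sdc4* and *Hspg2* (perlecan) were lower by more than 1 on the log2 scale. *Hs3st3a1*, a 3-O-sulfotransferase, had 0.627 and 0.504 against 4.48 and 8.33 CPM (-3.27, adjusted p = 0.000170, edgeR). Before scaling, the median of all genes was -0.20 in this comparison, and the log2 differences are relative to that shift. Of the members, 8 had higher values in the neuron classes in both embryos, from *Hs6st1* (25.2 and 28.8 against 17.2 and 15.8 CPM) to *Hs3st4* (505 and 495 against 3.97 and 3.70). Of all genes tested here, 35.4% had higher values in the neuron classes without overlap, and nothing is read from the members' count. *Ndst1* (27.3 and 27.9 against 40.5 and 45) and *Ndst4* (0.778 and 2.04 against 3.27 and 2.38) had lower values.

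The interneuron-like cells used were those of the MGE, since the Adarb2-led cluster took no name. Against excitatory neuron-like cells, 6 of 32 tested pathway genes were higher and 11 lower (18.8% and 34.4%, against 18.1% and 20.3% of all genes). *Gpc4* had 4.82 and 2.27 against 64.9 and 69.4 CPM (log2 difference -4.28, adjusted p = 9.68e-08, edgeR). *Hs3st3b1*, a further 3-O-sulfotransferase, had 0.419 and 0.454 against 15.2 and 14.2 CPM (-5.11, adjusted p = 8.39e-07, edgeR). *Sulf2*, which removes 6-O-sulfate outside the cell, was higher with 17.4 and 23.8 against 4.72 and 7.53 CPM (1.69, adjusted p = 0.000550, edgeR), while the related *Sulf1* was lower. In 1 fit over all classes, *Sulf1* and *Gpc5* were no longer called (adjusted p = 0.174 and 0.392). Of the members, *Ndst4* alone had higher values in MGE interneuron-like cells (5.45 and 4.31 against 0.778 and 2.04 CPM), as had 38.1% of all genes tested, and the values of *Ndst1* lay close together (26.6 and 25.4 against 27.3 and 27.9).

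Layer 6 neuron-like cells were the only deep-layer class, and against upper-layer neuron-like cells 8 of 29 tested pathway genes were higher and 5 lower (27.6% and 17.2%, against 20.5% and 19.1% of all genes). *Hs3st3b1* had 65.7 and 67.2 CPM in layer 6 neuron-like cells against 0.119 and 0.321 (log2 difference 8.18, adjusted p = 2.22e-07, edgeR). Its next group among the 17, the Cntn4-led cluster, had 12.5 and 10.2 CPM. *Sulf1* had 57.7 and 50.7 against 1.07 and 1.82 CPM (5.26, adjusted p = 9.93e-07, edgeR). *Xylt1* had 176 and 206 against 40.2 and 29.8 CPM (2.52, adjusted p = 6.76e-06, edgeR). Among the 17 groups, layer 6 neuron-like cells thus held the highest level of *Hs3st3b1* and *Sulf1* as well as of *Hs3st2*, *Hs3st4* and *Hs3st5*. For *Hs3st2* this place was not stable, since its highest group moved under other settings. *Hs3st6*, another 3-O gene on the list, had 1 UMI in upper-layer and 1 in immature excitatory neuron-like cells of embryo 5 and none in the other groups.

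**Figure D5:**
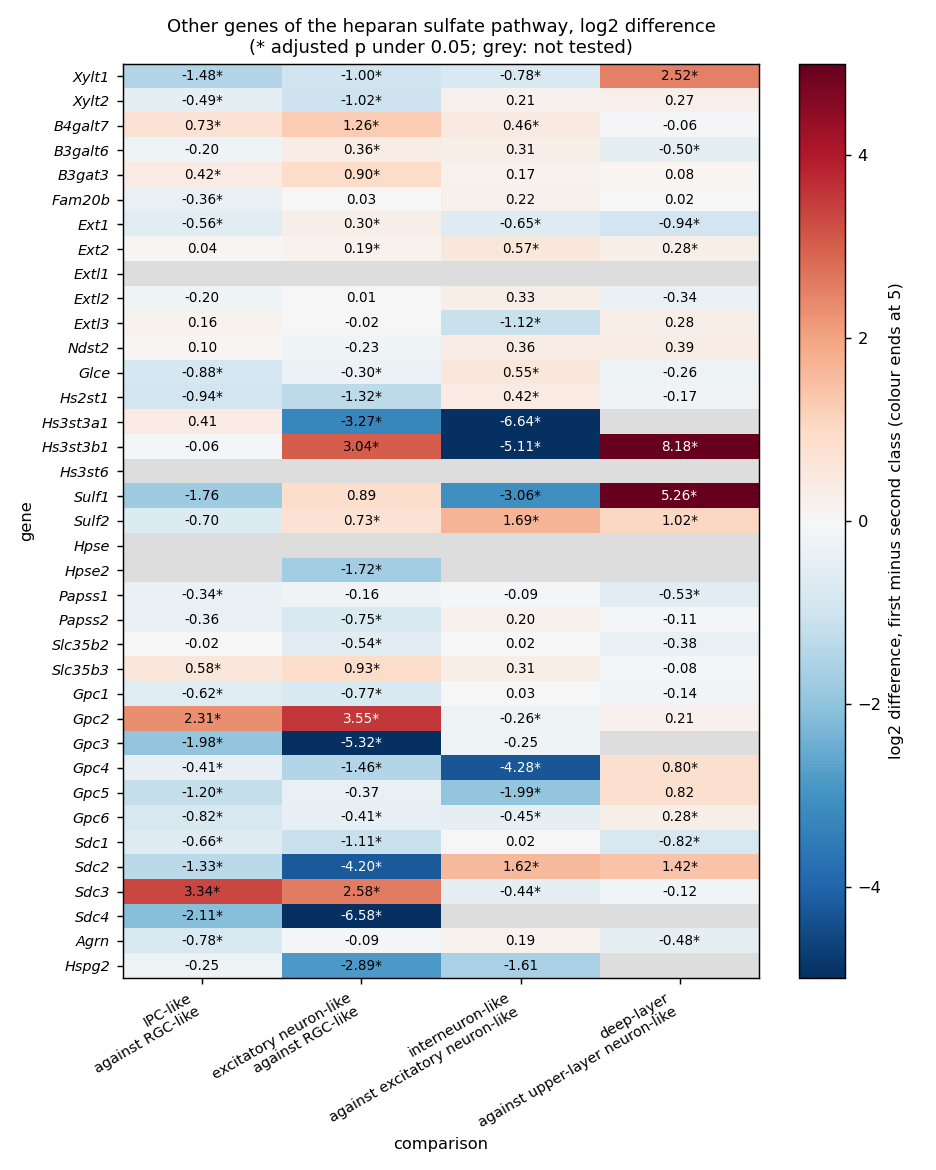
Log2 difference (first minus second class) of the 37 other pathway genes in 4 comparisons, with an asterisk where the adjusted p is under 0.05 (edgeR), grey where the gene was not tested, and colour ending at 5 in either direction. *Hs3st3b1* (8.18) and *Sulf1* (5.26) stand out between deep-layer and upper-layer classes, and the syndecan *Sdc4* has the lowest value (-6.58) between excitatory neuron-like and RGC-like cells.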

How the data were processed

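Single-cell suspensions of the cortex from 2 E16.5 embryos were sequenced as 10x Genomics 3′ v3.1 libraries. The authors deposited raw UMI counts per gene and barcode, made with Cell Ranger (7.0.0 in the submitters' processing notes, 7.1.0 in the matrix headers) on mm10, without normalization, and whether intron reads were counted is not given in the sources used here. Where introns count, long genes gain UMIs, and no levels were compared between genes. Total counts were 124318613 and 117679925 UMIs, no barcode having fewer than 500.

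Barcodes under 1000 detected genes or over 10% mitochondrial UMIs were dropped. Simulated doublets (2 per cell) scored each cell, and the highest scores were removed at a rate of 0.8% per 1000 cells, 947 and 1052 in all. Counts scaled to 10000 per cell, 2000 variable genes, 30 principal components and 20 neighbours were used for Leiden clustering at resolution 1 (scanpy 1.11.5, leidenalg 0.10.2, Python 3.11.15). The 10 members and 37 pathway genes were kept out. A cluster was named where the mean log2 ratio of marker CPM (plus 10) was at least 0.5, at least 3 markers were in 10% of its cells, and no other class had more markers among its 10 leading genes. Without an own marker among those 10, at least 2 were needed among the 100 leading genes, a part set after seeing the clusters. Of the RGC-like clusters, 3 of 4 had no own marker among the 10, and of the IPC-like clusters 1 of 3. The Tfap2d-led cluster of the immature excitatory class had none either.

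UMIs were summed per embryo and class. Sums were tested with edgeR 4.0.16 (quasi-likelihood, TMM, filterByExpr, Benjamini-Hochberg over all tested genes, called under 0.05; R 4.3.3), which was tested on simulated data. SE is the log2 difference over the square root of F. The classes compared were sums over the same animals, which pairs them by embryo, and paired deviations correlated at 0.252, 0.185, 0.194 and 0.221 in the 4 comparisons. The members and lists were chosen with earlier results of these data known. The text names the members, the pathway list, the 5 genes most like each of 4 members, and markers of a class. Of called pathway genes, examples with a log2 difference of at least 1 were given, a choice made after seeing the data, with *Hs2st1* and *Glce* named beside them for the progenitors. Positions are RefSeq's for GRCm38.p6, and 8 members had a start in its table of promoters. One marker gene is not reported here.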

Additional observations from a re-analysis of the deposited data

Results flagged for a closer look

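*Ndst3* had a signal in cells that no comparison above used. The pericyte-like cluster, led by *Rgs5* and *Abcc9*, held 51 and 45 cells and so missed the minimum of 50 cells in embryo 5. Its *Ndst3* level was 533 ± 182 CPM (SD, n = 2), with 662 in embryo 4 and 405 in embryo 5, from 393 and 203 UMIs. The mean of the highest group used was 289 CPM, and 3 UMIs would give 5.05 and 5.98 CPM in these cells. *Hs3st4* had 5.05 and 3.99 CPM and *Ndst4* 1.68 and 0 CPM in the same cluster.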

How the results depend on the processing

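No call of *Hs3st1*, *Hs6st2* or *Ndst4* between IPC-like and RGC-like cells was lost under the 12 tested alternatives, with log2 differences of 1.54 to 2.65, -2.66 to -2.26 and 1.57 to 2.25. With doublets kept, *Hs3st4* was called at -4.96 (main value -0.30), *Hs3st5* (-0.73), *Hs6st3* (-1.19) and *Ndst3* (-0.73) took the other sign, 2 members were higher and 6 lower, and 2 pathway genes were higher, as against 6 higher between excitatory neuron-like and RGC-like cells. At resolution 2, *Hs6st3* (-0.95) and *Ndst3* (-0.39) turned and 2 members were lower. Without clusters led by cycling genes (added once the data were known), *Ndst3* was at -0.39, whereas with at least 2000 detected genes it was at 2.35 (main value 1.12). Higher pathway genes between IPC-like and RGC-like cells numbered 2 under DESeq2 and 3 with at most 5% mitochondrial counts. Under DESeq2, 1801 genes were higher and 1540 lower in deep-layer cells, with 2 pathway genes lower. In 1 fit over all classes 7 pathway genes were lower in interneuron-like cells. For most of these settings the share of all genes called is not given here. Nothing is therefore read from the counts of members and pathway genes. The causes were not tested. The replicate block changed no call of a member (*Hs3st1* 2.46, *Hs6st2* and the other members within 0.05 of the values above). Leaving out an embryo gave values with no test, since 1 sum per class is left. Of the 35 pathway results with a log2 difference of at least 1, 28 were called under every alternative test. The same cells gave the highest group for 7 to 10 of the 10 members under the alternatives for the levels, and *Hs6st3*, *Ndst1*, *Ndst3* and *Hs3st2* were those that moved. The level in the highest group moved by over 1.5 times for *Ndst3* (442 to 532 CPM where its highest cluster stood alone or, with doublets kept, was the pericyte-like one), *Hs3st2* (91.9 with at least 500 detected genes, 198 at resolution 2), *Hs3st1* (143 with at most 5% mitochondrial counts, 141 at resolution 2), and at resolution 0.5 *Hs3st4* (1481) and *Hs3st5* (362). Precision is limited by 2 embryos and, for the Cajal-Retzius, Cntn4-led and pericyte-like cells, by few cells.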
